A study of Mus musculus with 59 samples.

Results

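The data here are 8 RNA-seq libraries labeled striatum, 4 from wild-type (WT) mice and 4 from 154Q-AXH mice, out of 59 libraries in the series. All mice were 10 weeks old, on a C57BL/6 background. 154Q-AXH mice carry Atxn1 154Q[V591A;S602D]/2Q: 1 *Atxn1* allele has the expanded CAG repeat of the SCA1 knockin model and, on that allele, the V591A and S602D substitutions in the AXH domain that disrupt binding of ATXN1 to CIC, and the other allele is the mouse 2Q allele. WT mice carry neither change. The 4 striatal libraries of 154Q mice, which carry the expanded repeat without the substitutions (Atxn1 154Q/2Q), share the fit and are given where they bear on a result. The libraries were chosen by their labels, 1 library per mouse, and the question is which functions and cell-type genes differ from WT in the striatum when binding of expanded ATXN1 to CIC is disrupted. The substitutions are numbered after the human protein. The alleles are knockins, so expanded ATXN1 is made from the *Atxn1* locus in every cell that uses it, and the founder line that gave these mice is not given in the sources used here.

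ATXN1 is a nuclear protein whose polyglutamine expansion causes spinocerebellar ataxia type 1. It binds Capicua (CIC), a DNA-binding repressor that holds down genes of the receptor tyrosine kinase and MAP kinase pathway, through its AXH domain. The striatum is made up largely of spiny projection neurons, inhibitory neurons that carry either the D1 dopamine receptor with the peptides substance P and dynorphin, or the D2 receptor with the adenosine receptor encoded by *Adora2a* and enkephalin. It also holds cholinergic and GABAergic interneurons and, unlike the cortex above it, has hardly any glutamatergic cell bodies.

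The marker genes show that most libraries labeled striatum carry cortical markers at high levels. Values are CPM, the read pairs counted on a gene per 1000000 counted on all genes, scaled by the TMM method, and each series of values below has WT-70 and WT-77 before WT-220 and WT-221, then 154Q-AXH-207 and 154Q-AXH-209 before 154Q-AXH-217 and 154Q-AXH-218. The summed level of 11 cortical glutamatergic markers, such as *Slc17a7* and *Neurod6*, was 2081, 2202, 705, and 2278 CPM in the WT striatal libraries and 1732, 1545, 463, and 2114 CPM in the 154Q-AXH ones. The median of the 4 WT libraries labeled cortex was 2414 CPM. WT-220 and 154Q-AXH-217 therefore held 29.2% and 19.2% of the cortical level, and the other 10 striatal libraries of the 3 genotypes held from 64.0% to 94.4%. These markers do not tell cortex from hippocampus, where the 4 WT libraries were at 1902 to 2128 CPM.

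The 24 markers shared by both kinds of spiny projection neuron summed to 7529.6, 6026, 15076, and 6097 CPM in WT and 3628, 5897, 10483, and 2910.0 CPM in 154Q-AXH mice, against 1965 to 2138 CPM in WT cortex. Every library was above the cortex, but the level in 154Q-AXH-218 was 1.43 times the cortical median and in WT-220 it was 7.39 times. The plot of the marker sums shows WT-220 and 154Q-AXH-217 apart from the rest. The same mice had the most myelin gene counts among these 8 libraries (17922 and 17426 CPM over 15 genes, against 7212 to 12419 CPM) and the highest mitochondrial share (7.01% and 6.82%, against 4.88% to 5.97%). The counts below are therefore given with all 12 striatal libraries and, for the lists where they differ most, also without WT-220 and 154Q-AXH-217. The fit without them was chosen after the data were seen. It leaves out the 2 libraries with the lowest cortical and the highest spiny projection neuron marker sums. The label striatum is kept below as the name of the libraries.

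**Figure D1:**
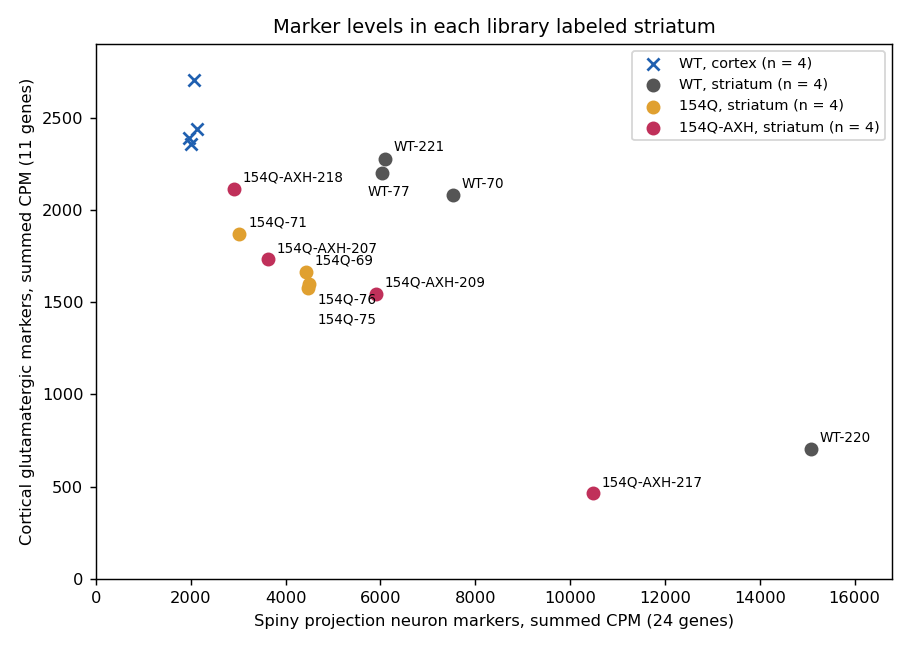
Each filled point is 1 library labeled striatum, with the summed CPM of 24 spiny projection neuron markers on the x axis and of 11 cortical glutamatergic markers on the y axis, and crosses are WT cortex. WT-220 (15076 and 705 CPM) and 154Q-AXH-217 (10483 and 463 CPM) stand apart at the lower right, and the other 10 libraries lie between 1545 and 2278 CPM on the y axis.

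The 8 libraries held from 28058359 to 54719126 read pairs counted on genes. *Atxn1* itself was at 45.7, 46.9, 64.0, and 44.7 CPM in the WT libraries and 60.3, 53.9, 64.5, and 50.1 CPM in the 154Q-AXH libraries (log2 fold change 0.18, SE 0.12, adjusted p = 0.60), and the groups overlapped. The substitutions change codons, so the gene count does not check the genotype. *Cic* was at 171, 155, 121, and 177 CPM in the WT libraries and 154, 167, 158, and 159 CPM in the 154Q-AXH libraries (log2 fold change 0.03, adjusted p = 0.95), also with overlap. *Rfx1*, *Zbtb5*, and *Zkscan1*, which code for DNA-binding proteins, had log2 fold changes of -0.09, -0.05, and 0.16 (adjusted p = 0.86, 0.92, and 0.44). None of the 8 genes listed as ATXN1 and its partners passed the test. *Xist*, which only female cells express, was at 583 CPM in 154Q-AXH-217 and at most 5.92 CPM in the other 7 libraries, so this mouse was the only one of the 8 with a female pattern.

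Against WT, 249 of 18408 genes passed the test in 154Q-AXH mice, 1.35% of those tested (edgeR quasi-likelihood test, Benjamini-Hochberg adjusted p under 0.05). The changes ran mainly downward: 198 genes fell (1.08%) and 51 rose (0.277%). Fallen genes had a median log2 fold change of -0.72 and risen genes of 0.54, and the median over all genes tested was -0.01. The ranges of the 4 WT and the 4 154Q-AXH libraries did not overlap for 248 of the 249, against 6.87% of all genes tested, 3.01% above WT and 3.86% below. Without WT-220 and 154Q-AXH-217 the count was 937 of 18526 (5.06%), 233 raised (1.26%) and 704 lowered (3.8%). Of the 249, 241 were called there too, all 249 in the same direction. With the cortical marker level as a covariate the count was 1339 (7.27%), 420 raised (2.28%) and 919 lowered (4.99%). With a covariate for mouse number series, 119 of the 249 were called too. In a fit of only the WT and 154Q-AXH libraries, 71 of the 246 tested there were. Leaving out 1 library gave from 101 genes (without 154Q-AXH-209) to 610 (without WT-220), and 116 without 154Q-AXH-207, 116 without WT-221, and 160 without WT-77. Against only the 2 WT mice whose numbers lie in the same series as the 154Q-AXH mice, no gene was called (edgeR, 1351 at an unadjusted p under 0.05). These 2 mice are WT-220 and WT-221, and the 154Q libraries were left out of that fit. All 249 genes kept their direction in it. For the 248 with separate ranges, leaving out libraries can hardly change a direction, so this is no further test.

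The 12 lowered genes with the lowest p were named by a rule that also asked for ranges that do not overlap. Several act in energy metabolism and growth control. *Gpd1*, the cytosolic glycerol-3-phosphate dehydrogenase that links glycolysis to lipid synthesis (chr15:99717515-99725005 in GRCm38), was at 80.9, 83.0, 77.4, and 80.7 CPM in the WT libraries and 44.7, 40.9, 49.2, and 42.3 CPM in the 154Q-AXH libraries (log2 fold change -0.86, SE 0.06, adjusted p = 4.5e-05). *Pdp1*, the phosphatase that activates pyruvate dehydrogenase, was at 208.9, 196, 179, and 234 CPM in the WT libraries and 109.7, 92.5, 101, and 108 CPM in the 154Q-AXH libraries (log2 fold change -0.99, SE 0.08, adjusted p = 0.00012). *Ddit4l*, an inhibitor of mTORC1 signaling (chr3:137621612-137628333), was at 28.7, 29.8, 26.3, and 25.2 CPM in the WT libraries and 8.42, 7.61, 5.03, and 8.03 CPM in the 154Q-AXH libraries (log2 fold change -1.92, SE 0.14, adjusted p = 4.5e-05). The WT libraries lay close together for *Gpd1* and *Ddit4l*, WT-220 included, and ran from 179 CPM in WT-220 to 234 CPM for *Pdp1*. Every 154Q-AXH library was below all WT libraries for each of these genes, as the rule required.

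Others code for parts of the synapse. *Gsg1l*, an auxiliary subunit of AMPA-type glutamate receptors (chr7:125878420-126082411), was at 149, 137, 166, and 140.5 CPM in the WT libraries and 64.3, 73.6, 76.6, and 70.97 CPM in the 154Q-AXH libraries (log2 fold change -1.05, SE 0.08, adjusted p = 4.9e-05). *Hrh3*, the histamine H3 receptor, which limits transmitter release, was at 96.0, 82.5, 119.7, and 92.7 CPM in the WT libraries and 39.1, 48.1, 41.9, and 41.5 CPM in the 154Q-AXH libraries (log2 fold change -1.20, SE 0.10, adjusted p = 0.00012). *Homer1*, which codes for a postsynaptic scaffold and a short activity-induced form, was at 220.6, 245, 226, and 293 CPM in the WT libraries and 124, 140.03, 123, and 148 CPM in the 154Q-AXH libraries (log2 fold change -0.88, SE 0.10, adjusted p = 0.00076). *Hrh3* was highest in WT-220 and *Homer1* in WT-221. All 4 154Q-AXH libraries were below the lowest WT library for each of the 3 genes, as the naming rule required.

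*Ier5l*, a relative of the immediate early gene *Ier5*, was at 39.1, 36.2, 45.9, and 40.6 CPM in the WT libraries and 16.7, 16.9, 14.6, and 17.1 CPM in the 154Q-AXH libraries (log2 fold change -1.31, SE 0.09, adjusted p = 4.5e-05). *Plk5*, a polo-like kinase family member expressed in brain, had the largest fall of the 12, with 29.9, 21.6, 24.6, and 20.2 CPM in the WT libraries and 2.78, 5.74, 7.40, and 4.68 CPM in the 154Q-AXH libraries (log2 fold change -2.22, SE 0.23, adjusted p = 0.00064). *Hipk4*, a member of the homeodomain-interacting kinase family, was at 149.5, 159, 154, and 146 CPM in the WT libraries and 69.97, 75.7, 94.4, and 70.9 CPM in the 154Q-AXH libraries (log2 fold change -0.97, SE 0.10, adjusted p = 0.00056). For *Hipk4* the library of 154Q-AXH-217 was the highest of its group and, as the naming rule required, below every WT library. *Cabp7*, a calcium-binding protein, *Ccn2*, a matricellular growth factor that marks the deepest neurons of the cortex, and *Per1*, a clock gene, fell by 0.99, 1.13, and 0.85 on the log2 scale (adjusted p = 0.00030, 0.00071, and 0.00071). All 12 kept the call when any 1 of the 12 libraries was left out.

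The 12 raised genes with the lowest p changed less, by 0.40 to 1.64 on the log2 scale. *Nagk*, the kinase that salvages N-acetylglucosamine (chr6:83794982-83804018), was at 32.3, 34.9, 36.3, and 34.9 CPM in the WT libraries and 47.5, 53.6, 50.1, and 51.5 CPM in the 154Q-AXH libraries (log2 fold change 0.55, SE 0.06, adjusted p = 0.00072). *Sfmbt2*, an imprinted Polycomb group gene, had the largest rise, with 1.99, 2.11, 1.96, and 2.20 CPM in the WT libraries and 5.29, 6.41, 9.25, and 4.68 CPM in the 154Q-AXH libraries (log2 fold change 1.64, SE 0.21, adjusted p = 0.0020). *Pnck*, a calcium/calmodulin-dependent kinase on the X chromosome, was at 53.6, 46.8, 63.8, and 51.6 CPM in the WT libraries and 80.6, 92.0, 83.2, and 98.2 CPM in the 154Q-AXH libraries (log2 fold change 0.71, SE 0.09, adjusted p = 0.0029). The 154Q-AXH libraries of *Sfmbt2* were spread, with 154Q-AXH-217 highest, while those of *Nagk* lay close together.

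*Asl*, argininosuccinate lyase of the urea cycle, was at 15.0, 14.5, 14.6, and 13.5 CPM in the WT libraries and 19.7, 23.2, 25.9, and 22.6 CPM in the 154Q-AXH libraries (log2 fold change 0.67, SE 0.09, adjusted p = 0.0032). *Slc6a15*, a neuronal transporter of neutral amino acids, was at 56.5, 56.7, 51.5, and 54.8 CPM in the WT libraries and 76.8, 78.6, 67.6, and 81.2 CPM in the 154Q-AXH libraries (log2 fold change 0.47, SE 0.07, adjusted p = 0.0044). *Psme1*, a subunit of the proteasome activator PA28, was at 23.5, 22.3, 26.7, and 26.3 CPM in the WT libraries and 35.5, 39.9, 33.2, and 41.8 CPM in the 154Q-AXH libraries (log2 fold change 0.60, SE 0.09, adjusted p = 0.0074). The other 6 were *Emid1*, *Gprasp2*, which sorts G protein-coupled receptors, *Cyb5r1*, *Wiz*, a partner of the histone methyltransferases G9a and GLP, *Rab9b*, and *Samd14*, with log2 fold changes of 0.78, 0.51, 0.44, 0.40, 0.57, and 0.72 (adjusted p from 0.0027 to 0.011). Counts ignore strand, so for *Gpd1*, *Hrh3*, *Cabp7*, *Ccn2*, *Sfmbt2*, *Psme1*, and *Wiz*, which overlap an antisense gene, the reads of both cannot be told apart, and *Gprasp2* shares sequence with the overlapping gene *Bhlhb9*.

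**Figure D2:**
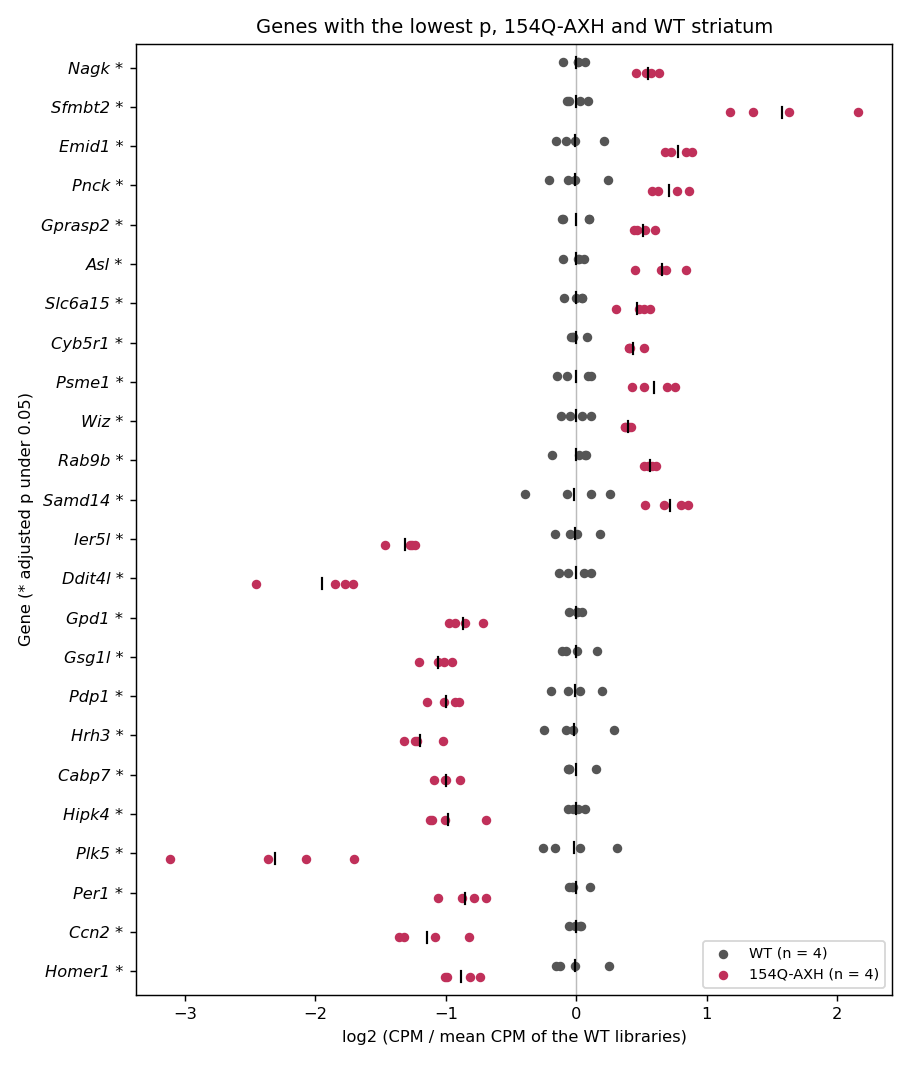
Each point is 1 library, plotted as log2 of its CPM over the mean of the 4 WT libraries, for the 12 raised and 12 lowered genes with the lowest p, and black ticks are group means. The ranges of WT and 154Q-AXH mice do not overlap for any of the 24 genes, as the naming rule required, and *Plk5* and *Ddit4l* lie farthest below WT.

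Immediate early genes, which neuronal activity switches on within minutes, had the largest share of lowered members of the 44 lists with all 12 libraries and no covariate. Of 20 tested, 10 fell and none rose, and the median log2 fold change was -0.74 with all 20 below 0. The 44 lists were chosen with earlier results of these data known, so their shares describe the lists and are no test. *Arc*, which regulates AMPA receptor trafficking (chr15:74669083-74672570), was at 227, 233, 229, and 367 CPM in the WT libraries and 123, 74.998, 132, and 95.8 CPM in the 154Q-AXH libraries (log2 fold change -1.31, SE 0.21, adjusted p = 0.0090). *Egr2*, a zinc finger transcription factor, was at 10.2, 7.84, 17.1, and 12.8 CPM in the WT libraries and 1.81, 1.07, 2.34, and 3.24 CPM in the 154Q-AXH libraries (log2 fold change -2.52, SE 0.35, adjusted p = 0.0036). *Fosl2*, a partner in AP-1 transcription factors, was at 27.8, 32.8, 31.8, and 44.8 CPM in the WT libraries and 14.6, 11.2, 18.6, and 14.1 CPM in the 154Q-AXH libraries (log2 fold change -1.22, SE 0.18, adjusted p = 0.0061). WT-221 was highest for *Arc* and *Fosl2*, WT-220 for *Egr2*, and no 154Q-AXH library reached the lowest WT library of any.

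*Nr4a1*, an orphan nuclear receptor, was at 119, 123, 180.1, and 171 CPM in the WT libraries and 82.0, 47.3, 88.2, and 67.7 CPM in the 154Q-AXH libraries (log2 fold change -1.06, SE 0.20, adjusted p = 0.021). *Egr3*, *Egr4*, *Homer1*, and *Dusp1*, a MAP kinase phosphatase, had log2 fold changes of -0.87, -0.88, -0.88, and -0.85 (adjusted p from 0.00076 to 0.0098). *Egr1* and *Ier5* are named after their values were seen, with -1.02 and -0.80 (adjusted p = 0.023 and 0.041). Not every member moved this far: *Fos* was at 26.1, 25.0, 26.0, and 40.6 CPM in the WT libraries and 20.3, 13.8, 16.2, and 27.3 CPM in the 154Q-AXH libraries, *Npas4* had a log2 fold change of -0.40 and *Plk2* of -0.22, and none of these passed (adjusted p = 0.32, 0.64, and 0.19). *Fos* and *Npas4* are also named after their values were seen. The ranges of WT and 154Q-AXH did not overlap for 12 of the 20, with all 154Q-AXH libraries below, against 3.86% of all genes tested. With the cortical marker level as a covariate 15 were lowered, and the cholinergic and D2 lists below then had larger shares. The list had 10 lowered members without WT-220 and 154Q-AXH-217, where 3.8% of all genes fell. With 1 library left out it had from 7 to 10. *Nr4a1* lost its call without WT-221, 154Q-AXH-209, or 154Q-AXH-218, *Egr1* lost its call without WT-77, WT-221, 154Q-AXH-207, or 154Q-AXH-209, and *Ier5* lost its call without any 1 of 10 libraries and kept it without WT-220 or 154Q-AXH-218.

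**Figure D3:**
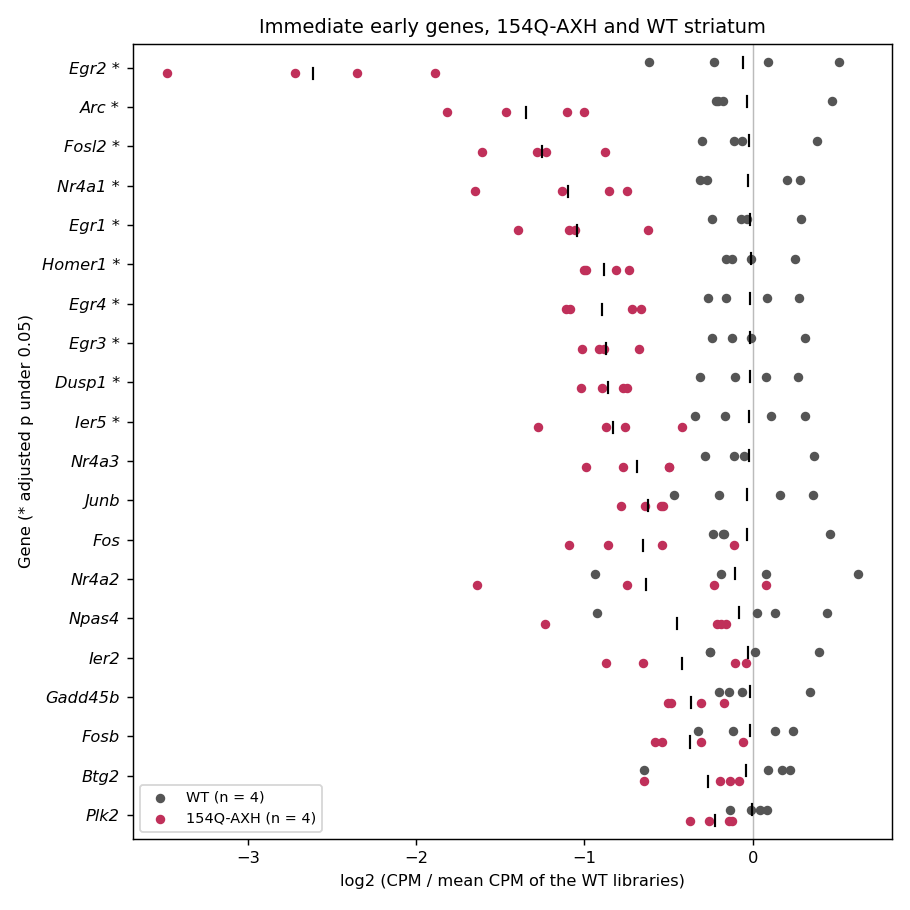
The 20 immediate early genes, ordered by log2 fold change, with each library plotted as log2 of its CPM over the WT mean and an asterisk on the 10 that passed the test. All 20 have 154Q-AXH means to the left of WT, from *Egr2* at the top to the members with small differences at the bottom.

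Of 28 calcium-binding proteins and CaM kinases listed and tested, 4 fell and none rose, against 1.08% lowered and 0.277% raised among all genes. *Pnck*, the raised CaM kinase above, was not on the list. *Camk2n1*, an inhibitor of CaMKII, was at 2827, 2808, 2354, and 2957 CPM in the WT libraries and 1362, 1378, 1199, and 1807 CPM in the 154Q-AXH libraries (log2 fold change -0.93, SE 0.14, adjusted p = 0.0056). *Camkk2*, the kinase that activates other CaM kinases, was at 388, 436, 261, and 429 CPM in the WT libraries and 223, 236, 204, and 243 CPM in the 154Q-AXH libraries (log2 fold change -0.74, SE 0.13, adjusted p = 0.017). *Camk4*, which phosphorylates CREB in the nucleus, had a log2 fold change of -0.45 (adjusted p = 0.024), and *Cabp7* is given above. For *Camkk2* the lowest WT library was WT-220, the library with few cortical markers. *Camk2a* itself, at 3019, 3238, 1613, and 3320.2 CPM in the WT libraries and 2045, 2234, 1552, and 2457 CPM in the 154Q-AXH libraries, did not pass (log2 fold change -0.43, adjusted p = 0.41). It did pass without WT-220 and 154Q-AXH-217 (-0.50, adjusted p = 0.0040). In that fit 8 of the list were lowered, where 3.8% of all genes fell. *Camk4* lost its call without WT-70, WT-77, WT-221, or 154Q-AXH-207 and *Camkk2* lost its call without WT-77, WT-221, 154Q-AXH-207, or 154Q-AXH-209, and the list had 2 lowered members without 154Q-AXH-207, WT-221, or WT-77.

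Among 39 receptors for dopamine, acetylcholine, opioids, cannabinoids, adenosine, serotonin, and adrenaline, 3 fell (7.69%, against 1.08% of all genes) and none rose. *Cnr1*, the CB1 cannabinoid receptor, was at 188, 129.97, 236, and 188 CPM in the WT libraries and 83.2, 106, 113, and 90.6 CPM in the 154Q-AXH libraries (log2 fold change -0.92, SE 0.16, adjusted p = 0.013). *Chrm4*, the M4 muscarinic receptor of D1 spiny projection neurons, was at 42.1, 38.6, 54.5, and 39.5 CPM in the WT libraries and 22.1, 25.7, 33.7, and 21.6 CPM in the 154Q-AXH libraries (log2 fold change -0.76, SE 0.14, adjusted p = 0.019). *Oprd1*, the delta opioid receptor, was at 27.6, 26.5, 16.8, and 30.8 CPM in the WT libraries and 14.2, 14.9, 14.8, and 13.2 CPM in the 154Q-AXH libraries (log2 fold change -0.83, SE 0.15, adjusted p = 0.017). *Cnr1* and *Chrm4* were highest in WT-220, and *Oprd1* was lowest there among the WT libraries. All 3 receptors kept separate ranges, as did 248 of the 249 called genes. The median over the 39 was -0.39. Without WT-220 and 154Q-AXH-217, 11 receptors fell, where 3.8% of all genes did, and with 1 library left out the count ran from 0 (without 154Q-AXH-207) to 6 (without WT-220). *Cnr1* lost its call without 154Q-AXH-207, *Chrm4* lost its call without 154Q-AXH-207, 154Q-AXH-209, or 154Q-AXH-218, and *Oprd1* lost its call without WT-221 or 154Q-AXH-207. *Chrm4* was also not called in a fit of only the WT and 154Q-AXH libraries.

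Of 85 potassium channel genes, 4 fell: *Kcnh4* and *Kcnh3*, voltage-gated channels of the forebrain, *Kcnip3*, a calcium-binding modulator, and *Kcnk1*, a leak channel. *Kcnh4* was at 37.2, 33.9, 37.1, and 30.8 CPM in the WT libraries and 8.92, 16.9, 24.4, and 14.8 CPM in the 154Q-AXH libraries (log2 fold change -1.09, SE 0.22, adjusted p = 0.032). *Kcnh3* was at 215, 206, 177, and 219 CPM in the WT libraries and 126, 129.97, 114, and 165 CPM in the 154Q-AXH libraries (log2 fold change -0.61, SE 0.11, adjusted p = 0.017). The log2 fold changes of *Kcnip3* and *Kcnk1* were smaller, -0.47 and -0.30 (adjusted p = 0.013 and 0.046). The share, 4.71%, stands beside 1.08% of all genes lowered. Without WT-220 and 154Q-AXH-217, 18 potassium channel genes fell, where 3.8% of all genes did. The count was 0 without 154Q-AXH-209, 1 without WT-221, 13 without WT-220, and 2 or 3 with any other library left out. *Kcnh4* lost its call without any 1 of 8 libraries and kept it without WT-220, 154Q-AXH-207, 154Q-AXH-217, or 154Q-75, *Kcnk1* lost its call without any 1 of 10 libraries and kept it without WT-220 or 154Q-76, *Kcnh3* lost its call without WT-221, 154Q-AXH-207, or 154Q-AXH-209, and *Kcnip3* lost its call without 154Q-AXH-209.

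In 3 other receptor and channel lists 1 member fell, from 3.03% to 5.88% of the genes tested in a list, against 1.08% of all genes. These were *Cacnb1*, a calcium channel beta subunit (1 of 26, log2 fold change -0.38, adjusted p = 0.017), *Gsg1l* (1 of 33 glutamate receptor genes), and *Gabrd*, the delta subunit of extrasynaptic GABA-A receptors (1 of 17). *Gabrd* was at 111, 125, 145, and 100.4 CPM in the WT libraries and 56.6, 63.6, 85.7, and 57.3 CPM in the 154Q-AXH libraries (log2 fold change -0.87, SE 0.14, adjusted p = 0.0099). *Rgs4*, which shortens G protein signals, was the 1 of 18 RGS genes called and was at 757, 791, 775, and 740.1 CPM in the WT libraries and 367, 431, 482, and 478 CPM in the 154Q-AXH libraries (log2 fold change -0.80, SE 0.10, adjusted p = 0.0012). Both genes kept the call with any library left out, while *Cacnb1* lost its call without WT-221, 154Q-AXH-207, or 154Q-AXH-209. More members fell without WT-220 and 154Q-AXH-217, with 7 glutamate receptor and 4 calcium channel genes lowered, and 4 RGS genes lowered and 1 raised. In that fit 3.8% of all genes fell and 1.26% rose. With 1 library left out the glutamate receptor list had from 1 to 5 called members (5 without WT-220, 3 without 154Q-AXH-217), the calcium channel list from 0 to 2, and the RGS list from 1 to 2. None of 12 sodium channel genes and none of 37 cyclic nucleotide and protein kinase A genes passed (2 and 1 fell without WT-220 and 154Q-AXH-217), and in the synaptic vesicle list *Syt12* alone fell (1 of 43, -0.50, adjusted p = 0.011).

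Libraries of 1 group differed widely in the genes that define striatal neurons. None of the 24 shared markers of spiny projection neurons passed, and their median log2 fold change was -0.52, with 22 below 0. Leaving out 1 library moved that median from -0.86 (without 154Q-AXH-217) to -0.08 (without WT-220), and to -0.28 without 154Q-AXH-218 and -0.34 without 154Q-AXH-207. *Ppp1r1b*, which codes for DARPP-32, was at 784, 643, 2092, and 608 CPM in the WT libraries and 303, 545, 1118, and 202 CPM in the 154Q-AXH libraries (log2 fold change -0.93, SE 0.51, adjusted p = 0.50). *Scn4b*, a sodium channel beta subunit enriched in the striatum, was at 589, 481, 1136, and 475 CPM in the WT libraries and 139.9, 217.3, 419.7, and 89.0 CPM in the 154Q-AXH libraries (log2 fold change -1.63, SE 0.42, adjusted p = 0.090). *Scn4b* did not overlap between the groups, and *Ppp1r1b* did. Without WT-220 and 154Q-AXH-217, *Scn4b* passed (-1.78, adjusted p = 0.0025) as 1 of 3 lowered members, where 3.8% of all genes fell. In these bulk libraries fewer spiny projection neurons and less RNA in each cannot be told apart, and the part of the tissue mix in this result was not tested.

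Markers of the D1 and D2 types stood as follows. *Drd1* was at 91.4, 67.4, 207.3, and 75.96 CPM in the WT libraries and 36.6, 65.6, 118, and 23.98 CPM in the 154Q-AXH libraries (log2 fold change -0.86, adjusted p = 0.48). *Adora2a*, an adenosine receptor of D2 neurons, was at 159, 114, 397, and 111 CPM in the WT libraries and 46.7, 90.1, 193, and 25.9 CPM in the 154Q-AXH libraries (log2 fold change -1.14, adjusted p = 0.43). *Penk*, the enkephalin precursor, was at 376, 300.4, 1275, and 296 CPM in the WT libraries and 95.5, 192, 405, and 70.6 CPM in the 154Q-AXH libraries (log2 fold change -1.56, adjusted p = 0.26). WT-220 was highest in each, and the highest 154Q-AXH library, 154Q-AXH-217, was above the other 3 WT libraries. Over the 5 D2 markers tested the median was -0.87, with none called. Over the 9 D1 markers it was -0.00, with *Chrm4* called, and none was called in a fit of only the WT and 154Q-AXH libraries. *Tac1*, the substance P precursor, had a log2 fold change of -0.00 (SE 0.54). These medians rest on single libraries: leaving out 154Q-AXH-217 gave -1.68 for D2 and -0.62 for D1 markers, and leaving out WT-220 gave -0.25 and 0.50.

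With the cortical marker level as a covariate, 18 of the 24 shared markers, 4 of the 5 D2 markers, and 3 of the 9 D1 markers fell, where 4.99% of all genes fell, and 1 D1 marker rose. *Penk* then had a log2 fold change of -1.88 (adjusted p = 5.4e-05), *Ppp1r1b* of -1.29 (0.00062), and *Drd1* of -1.18 (0.00053). The covariate comes from the same libraries, and WT-220 and 154Q-AXH-217 lie farthest from its mean. Among the 3 other libraries of each group, the shared markers summed to 6026 to 7530 CPM in WT and 2910 to 5897 CPM in 154Q-AXH mice, with cortical sums of 2081 to 2278 and 1545 to 2114 CPM.

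The 6 cholinergic interneuron markers were all below WT on average (median -0.94), with none called. With the cortical marker level as a covariate all 6 fell (median -1.36), and the median was -0.25 without WT-220 and -1.71 without 154Q-AXH-217. *Chat*, choline acetyltransferase, was at 9.17, 6.61, 22.8, and 7.11 CPM in the WT libraries and 2.07, 4.23, 11.5, and 1.84 CPM in the 154Q-AXH libraries (adjusted p = 0.37), so the groups overlapped. Without WT-220 and 154Q-AXH-217 it passed (-1.49, adjusted p = 0.020). All 12 GABAergic interneuron markers had a log2 fold change below 0. Their median was -0.52, and it ran from -0.58 to -0.31 with 1 library left out. Their sum was 480 to 582 CPM in the WT libraries and 324 to 445 CPM in the 154Q-AXH libraries. *Sst*, the somatostatin precursor, was the only 1 of them called. It was at 174, 192, 266, and 228 CPM in the WT libraries and 139, 149.8, 133, and 163 CPM in the 154Q-AXH libraries (log2 fold change -0.56, SE 0.12, adjusted p = 0.035), and *Sst* lost its call without any 1 of 8 libraries and kept it without WT-70, WT-77, WT-220, or 154Q-AXH-218. *Npy* missed the threshold (-0.54, adjusted p = 0.058), and *Pvalb* overlapped between the groups (-0.54, adjusted p = 0.41). In a fit of only the WT and 154Q-AXH libraries none of the 12 was called. *Sst* and *Npy* are also made by cortical interneurons. *Sst* was the 1 of 15 neuropeptide genes called. None of 5 striosome markers (median -0.27) or 4 matrix markers (-0.19), which name the 2 compartments of the striatum, passed. In each list 1 marker fell without WT-220 and 154Q-AXH-217, and 1 with the cortical marker level as a covariate. Over all genes, 3.8% and 4.99% fell in those fits.

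No marker of glia, vessels, ependyma, or dividing cells was called with all 12 libraries and no covariate. With the cortical marker level as a covariate, 3 astrocyte genes and 1 ependymal or choroid plexus gene fell, where 4.99% of all genes fell. The 13 astrocyte genes summed to 3978 to 4478 CPM in the WT libraries and 3311 to 3813 CPM in the 154Q-AXH libraries. Without the covariate, the medians were -0.18 over 13 astrocyte genes, -0.10 over 15 myelin genes, and -0.11 over 7 oligodendrocyte precursor genes. They were -0.01 over 13 microglial genes, -0.10 over 9 endothelial genes, 0.03 over 10 mural and fibroblast genes, and -0.27 over 9 neuroblast and cell division genes. Over 10 ependymal and choroid plexus genes the median was -0.60, with all 10 below 0, but it was 0.42 without WT-70 and -1.20 without 154Q-AXH-207. *Mbp*, the myelin basic protein, was at 4799 to 8186 CPM in WT and 3344 to 7721 CPM in 154Q-AXH mice, and *C1qa*, a complement gene of microglia, at 48.4 to 80.6 CPM in WT and 48.7 to 57.9 CPM in 154Q-AXH mice. The 11 cortical glutamatergic markers had a median of -0.25 with none called, and the 7 markers of septum, pallidum, and thalamus 0.25. The ependymal and choroid plexus genes ranged from 426 to 2573 CPM in sum among WT and from 331 to 1518 CPM among 154Q-AXH libraries.

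**Figure D4:**
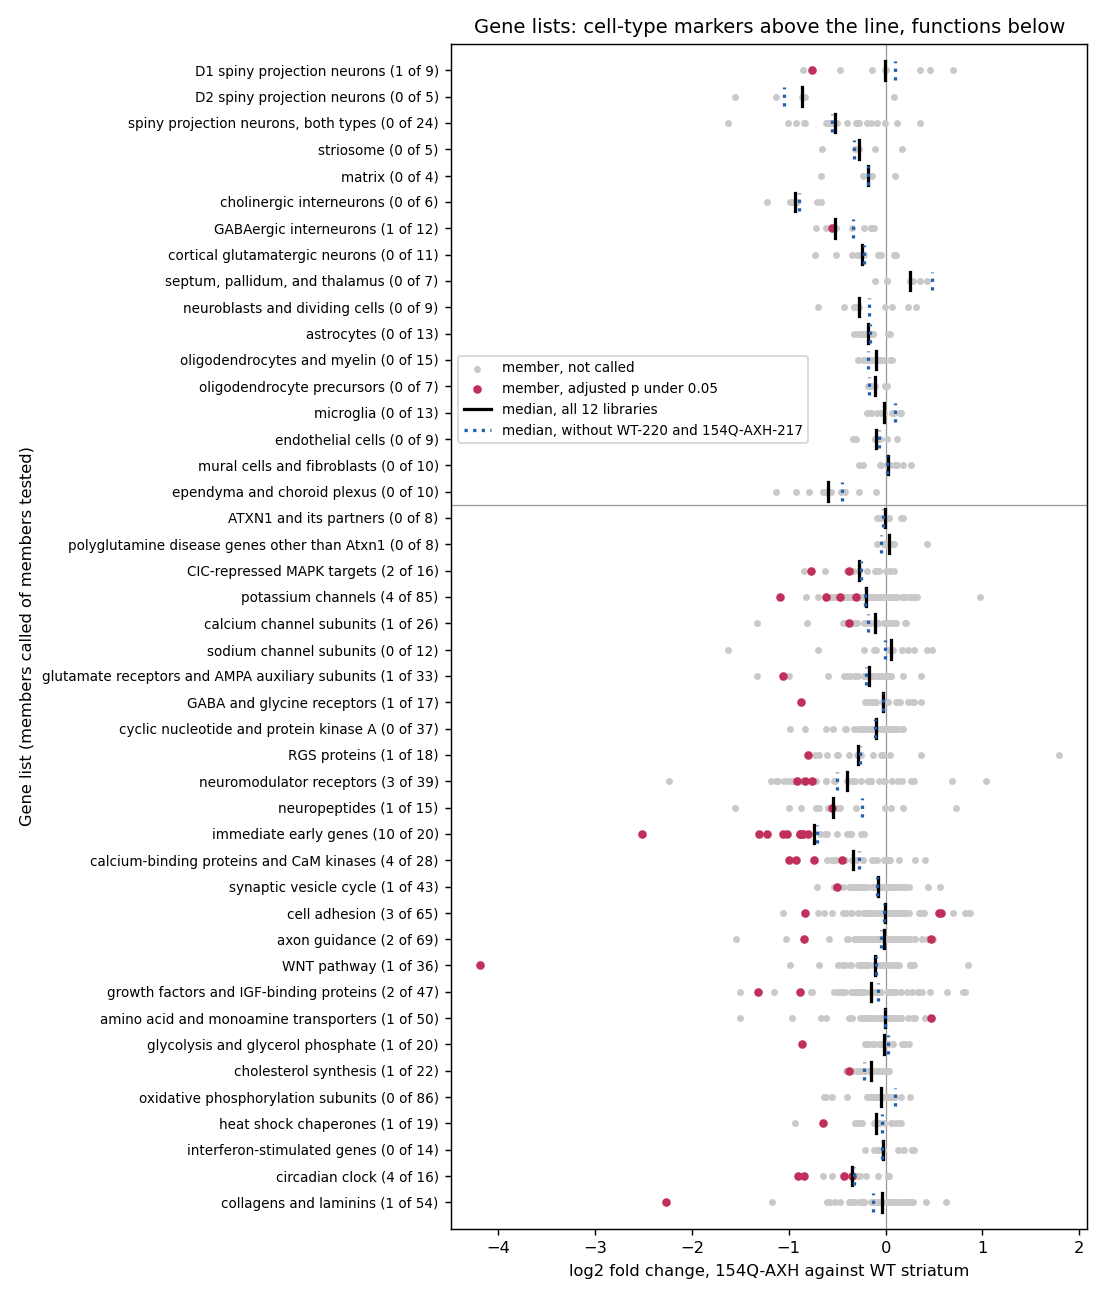
Each grey or red point is a member of a gene list at its log2 fold change in 154Q-AXH against WT striatum, red where it passed the test, and the black and dotted ticks are medians with all 12 libraries and without WT-220 and 154Q-AXH-217. Immediate early genes hold the most red points (10 of 20), and the shared spiny projection, D2, and cholinergic lists have medians left of 0 and no red point.

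Genes of the circadian clock formed another group with several lowered members, 4 of 16 (25.0%, against 1.08% of all genes), with a median of -0.34. *Per1*, a repressor of the clock, was at 122, 120.3, 123, and 135 CPM in the WT libraries and 68.1, 59.97, 77.2, and 72.5 CPM in the 154Q-AXH libraries (log2 fold change -0.85, SE 0.09, adjusted p = 0.00071). *Ciart*, another repressor, was at 22.2, 18.8, 30.96, and 19.6 CPM in the WT libraries and 14.02, 12.7, 11.8, and 10.6 CPM in the 154Q-AXH libraries (log2 fold change -0.90, SE 0.15, adjusted p = 0.013). *Nr1d1* (REV-ERB alpha) and *Npas2*, a partner of BMAL1, had log2 fold changes of -0.43 and -0.34 (adjusted p = 0.039 and 0.036). All 4 were separate from WT, as were 248 of the 249 called genes. Among those that did not pass, *Dbp* was at -0.55 and *Bhlhe40* at -0.88 (adjusted p = 0.22 and 0.13). The list had 8 lowered members without WT-220 and 154Q-AXH-217, where 3.8% of all genes fell, 7 without WT-220 alone, and from 1 (without 154Q-AXH-209) to 3 with any other library left out. *Ciart* lost its call without 154Q-AXH-209, *Nr1d1* lost its call without any 1 of 10 libraries and kept it without WT-220 or 154Q-75, and *Npas2* lost its call without any 1 of 9 libraries and kept it without WT-220, 154Q-69, or 154Q-76. The hour at which each mouse was dissected is not given in the sources used here.

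Genes that CIC is known to repress were examined next. Of 16 MAP kinase pathway targets of CIC, 2 fell (12.5%, against 1.08% of all genes) and none rose (against 0.277%). *Dusp6*, the phosphatase that turns off ERK, was at 74.5, 78.5, 62.4, and 96.1 CPM in the WT libraries and 48.2, 41.4, 36.3, and 57.2 CPM in the 154Q-AXH libraries (log2 fold change -0.77, SE 0.14, adjusted p = 0.020). *Spry2*, an inhibitor of receptor tyrosine kinase signaling, was at 61.3, 60.9, 80.5, and 69.3 CPM in the WT libraries and 52.0, 53.1, 51.7, and 52.0 CPM in the 154Q-AXH libraries (log2 fold change -0.38, SE 0.08, adjusted p = 0.039). For *Spry2* the 154Q-AXH libraries lay close together, below the lowest WT library. *Etv5*, a transcription factor among the best known CIC targets, was at 97.4, 117, 97.1, and 125 CPM in the WT libraries and 94.2, 82.7, 59.3, and 94.7 CPM in the 154Q-AXH libraries and did not pass (-0.40, adjusted p = 0.21), nor did *Spred1* (-0.27, adjusted p = 0.10). The median over the 16 was -0.27. The count was 4 without WT-220 and 154Q-AXH-217, where 3.8% of all genes fell. It was 4 without WT-220 alone, 0 without 154Q-AXH-207, 154Q-AXH-209, or WT-221, and 1 or 2 with any other library left out. *Dusp6* lost its call without WT-77, WT-221, 154Q-AXH-207, or 154Q-AXH-209, and *Spry2* lost its call without any 1 of 9 libraries and kept it without WT-70, WT-77, or WT-220.

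The study listed genes with a CIC peak from cerebellar tissue. Of these, 1198 were tested here, 24 fell (2.00%, against 1.08% of all genes), and none rose (against 0.277%). Without WT-220 and 154Q-AXH-217, 72 fell and 24 rose (against 3.8% and 1.26% of all genes), and with the cortical marker level as a covariate 79 fell and 25 rose. With 1 library left out the called members ran from 12 (without 154Q-AXH-209) to 67 (without WT-220, 57 lowered and 10 raised), with 13 without 154Q-AXH-207 and 14 without WT-221. The median over the list was -0.01, as over all genes. Beside *Gsg1l*, *Per1*, and *Dusp1*, the members with the lowest p were *Sec14l1*, *Rhobtb2*, *Vgf*, a secreted neuropeptide precursor, *Peg10*, an imprinted gene derived from a retrotransposon, and *Gpr153*, with log2 fold changes of -0.66, -0.74, -0.43, -0.60, and -1.33. *Vgf* was at 383, 398, 393, and 419 CPM in the WT libraries and 295, 286, 284, and 314 CPM in the 154Q-AXH libraries (log2 fold change -0.43, SE 0.06, adjusted p = 0.0029). The WT and 154Q-AXH libraries of *Vgf* were tight and well separated, and all 8 genes kept the call with any library left out.

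CIC binds the octamers TGAATGAA and TGAATGGA. On either strand of the RefSeq promoters (250 bases before to 50 after a gene's start, GRCm38.p6), at least 1 of these was present for 256 of 12766 tested genes with a promoter (2.01%), 2 of 141 lowered genes (1.42%), and 1 of 32 raised genes (3.13%). GTTGCC, part of the site bound by RFX factors, was present for 15.0% of all, 17.7% of lowered, and 9.38% of raised genes. The 3 called genes with a CIC octamer are shown by the 250 bases before their start, with the octamers in capitals, since they are the called genes whose promoter holds the letters CIC binds. They are *Dpf1*, a subunit of a neuronal chromatin remodeling complex (chr7:29303755-29304004, plus strand), *Sebox*, a homeobox gene (chr11:78503263-78503512, plus strand), and *Wiz* (chr17:32387818-32388067, minus strand).
Dpf1: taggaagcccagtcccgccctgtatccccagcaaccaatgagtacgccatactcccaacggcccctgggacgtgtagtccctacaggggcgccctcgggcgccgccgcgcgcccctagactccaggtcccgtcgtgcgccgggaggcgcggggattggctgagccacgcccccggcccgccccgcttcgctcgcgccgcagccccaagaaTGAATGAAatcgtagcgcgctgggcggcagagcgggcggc
Sebox: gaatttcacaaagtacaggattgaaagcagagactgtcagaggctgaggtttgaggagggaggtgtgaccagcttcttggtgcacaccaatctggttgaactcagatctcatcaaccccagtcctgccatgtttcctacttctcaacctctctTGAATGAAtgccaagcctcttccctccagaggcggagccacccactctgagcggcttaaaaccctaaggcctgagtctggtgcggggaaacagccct
Wiz: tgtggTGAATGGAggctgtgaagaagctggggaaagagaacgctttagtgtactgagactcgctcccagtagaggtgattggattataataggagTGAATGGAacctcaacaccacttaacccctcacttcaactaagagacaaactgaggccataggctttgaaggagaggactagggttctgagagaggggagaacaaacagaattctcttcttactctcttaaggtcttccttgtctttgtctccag
*Dpf1*, which is also on the CIC peak list, was at 55.9, 49.0, 63.6, and 61.8 CPM in the WT libraries and 36.5, 41.2, 40.7, and 40.4 CPM in the 154Q-AXH libraries (log2 fold change -0.54, SE 0.08, adjusted p = 0.0073). *Sebox* was at 1.78, 3.12, 1.76, and 3.93 CPM in the WT libraries and 0.939, 0.671, 0.339, and 0.792 CPM in the 154Q-AXH libraries (log2 fold change -1.92, SE 0.33, adjusted p = 0.013), and *Wiz* was raised, at 42.4, 37.9, 36.2, and 40.4 CPM in the WT libraries and 52.0, 50.9, 52.5, and 50.9 CPM in the 154Q-AXH libraries (log2 fold change 0.40, SE 0.06, adjusted p = 0.0089). *Dpf1* and *Sebox*, each with 1 octamer, were below WT in every 154Q-AXH library, and *Wiz*, with 2, was above. *Dpf1* and *Sebox* are named after their values were seen, and *Sebox* lost its call without 154Q-AXH-209. A match describes the letters only.

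Cell adhesion and axon guidance held both raised and lowered members. *Cntn6*, a contactin, and *Pcdh11x*, a protocadherin on the X chromosome, rose by 0.55 and 0.57 on the log2 scale, and *Cntnap3* fell by 0.83 (3 of 65 adhesion genes or 4.62%, against 1.35% of all genes, adjusted p = 0.020, 0.025, and 0.013). *Sema3a*, a secreted repulsive cue, was at 28.2, 28.4, 22.3, and 24.3 CPM in the WT libraries and 33.8, 38.4, 33.3, and 37.3 CPM in the 154Q-AXH libraries (log2 fold change 0.47, SE 0.09, adjusted p = 0.025). *Sema7a*, a membrane-anchored semaphorin, was at 282, 369, 199, and 315 CPM in the WT libraries and 177, 156, 124, and 195 CPM in the 154Q-AXH libraries (log2 fold change -0.84, SE 0.18, adjusted p = 0.036). For *Sema7a* the lowest WT library, WT-220, was just above the highest 154Q-AXH library, and *Sema7a* lost its call without any 1 of 9 libraries and kept it without WT-220, 154Q-AXH-218, or 154Q-75. *Sema3a* lost its call without WT-221, 154Q-AXH-207, 154Q-AXH-209, or 154Q-AXH-218, *Cntn6* lost its call without WT-221, 154Q-AXH-207, or 154Q-AXH-218, *Pcdh11x* lost its call without WT-70, WT-77, WT-221, 154Q-AXH-207, or 154Q-AXH-209, and *Cntnap3* lost its call without 154Q-AXH-207. *Sema3a* and *Sema7a* were the 2 of 69 guidance genes called (2.90%, against 1.35% of all genes). In the fit without WT-220 and 154Q-AXH-217, 5 adhesion genes fell and 3 rose, and 3 guidance genes fell and 2 rose. Over all genes, 3.8% fell and 1.26% rose in that fit. With 1 library left out the called members ran from 0 (without 154Q-AXH-207) to 7 (without WT-220) for adhesion and from 0 (without 154Q-AXH-207, 154Q-AXH-209, or WT-221) to 4 (without WT-220) for guidance.

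Several secreted and metabolic lists held 1 or 2 called members each with all 12 libraries. These were from 1.85% (collagens and laminins) to 5.26% (chaperones) of the genes tested in a list, against 1.35% of all genes. *Igfbp4*, which binds insulin-like growth factors, was at 75.99, 121, 80.2, and 108 CPM in the WT libraries and 62.7, 48.5, 39.3, and 58.4 CPM in the 154Q-AXH libraries (log2 fold change -0.88, SE 0.17, adjusted p = 0.023), and *Fgf17* was the other of 47 growth factor genes called (-1.32, adjusted p = 0.045), at 0.447 to 0.629 CPM in WT and 0.18 to 0.302 CPM in 154Q-AXH mice. *Wnt8b*, the 1 of 36 WNT pathway genes called, was at 0.891, 0.567, 1.56, and 0.566 CPM in the WT libraries and 0, 0.101, 0.0617, and 0.036 CPM in the 154Q-AXH libraries, with no count in 154Q-AXH-207 (adjusted p = 0.00071). *Gpd1* was the 1 of 20 glycolytic genes called, *Mvd* the 1 of 22 cholesterol synthesis genes (-0.38, adjusted p = 0.037), *Dnajb5* the 1 of 19 chaperones (-0.65, adjusted p = 0.011), *Slc6a15*, given above, the 1 of 50 amino acid and monoamine transporters, and *Col6a5* the 1 of 54 collagens and laminins (-2.27, adjusted p = 0.032). *Igfbp4* lost its call without WT-77, WT-221, or 154Q-AXH-209, *Fgf17* lost its call without any 1 of 11 libraries and kept it without 154Q-76, *Mvd* lost its call without any 1 of 10 libraries and kept it without WT-220 or 154Q-AXH-218, and *Col6a5* lost its call without any 1 of 6 libraries and kept it without WT-70, WT-220, WT-221, 154Q-AXH-217, 154Q-71, or 154Q-76. With WT-220 and 154Q-AXH-217 left out, 7 growth factor genes fell and 1 rose, and 3 cholesterol synthesis genes and 4 collagen and laminin genes fell, where 3.8% of all genes did. With 1 library left out the growth factor list had from 0 to 4 called members and the cholesterol list from 0 to 5, the highest without WT-220 in each. No member passed among 86 oxidative phosphorylation subunits (median -0.04), 14 interferon-stimulated genes (-0.03), or 8 genes of other polyglutamine diseases (0.03). Without WT-220 and 154Q-AXH-217, 1 oxidative phosphorylation and 1 polyglutamine disease gene rose, where 1.26% of all genes did. With the cortical marker level as a covariate 1 polyglutamine disease gene rose, where 2.28% of all genes did. Of 156 tested genes within 10 Mb of *Atxn1* on chromosome 13, which include any that travel with the edited locus, 2 were called, *Dok3* lowered (-0.87) and *Gm47781* raised (1.28%, against 1.35% of all genes). *Dok3* lost its call without any 1 of 7 libraries and kept it without WT-220, 154Q-AXH-217, 154Q-69, 154Q-75, or 154Q-76, and *Gm47781* lost its call without any 1 of 10 libraries and kept it without WT-220 or 154Q-76.

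Compared directly with 154Q striatum, 154Q-AXH striatum had no called gene. The lowest adjusted p of the 18408 was 0.94, with 601 genes at an unadjusted p under 0.05 (edgeR) and, by DESeq2, 0 called and 718 unadjusted. 154Q mice had 1047 genes called against the same 4 WT mice (5.69%), 353 raised (1.92%) and 694 lowered (3.77%), so the calls of both genotypes share their controls. In those 154Q calls, 9 of the 20 immediate early genes and 3 of the 24 shared spiny projection neuron markers fell. Of the 249 genes called in 154Q-AXH mice, 240 were called in 154Q mice too, and none went the opposite way. At an unadjusted p under 0.05, 35 of the 249 lay nearer WT in 154Q-AXH than in 154Q mice, and 6 lay farther. *Fosl2* and *Per1*, picked after their values were seen, lay farther, with log2 differences of -0.47 and -0.20. The genes given next were also picked after their values were seen, because 154Q-AXH libraries lay between the other genotypes or overlapped with 154Q. *Gsg1l* was at 51.6, 47.5, 56.3, and 55.1 CPM in the 154Q libraries, below all 4 154Q-AXH values, with a log2 difference of 0.44 (SE 0.08). *Hrh3* was at 30.4, 28.3, 29.5, and 28.6 CPM there, with a difference of 0.55 (SE 0.10), and *Gpd1* at 38.0, 34.97, 36.3, and 36.1 CPM, with 0.28 (SE 0.06). For *Arc* the 154Q libraries were at 115, 169, 131, and 109 CPM and overlapped with 154Q-AXH, and for *Nagk* at 47.7, 45.7, 48.8, and 48.9 CPM, where only the lowest 154Q-AXH library lay within their range. None of these differences passed over all genes, which does not show that the genotypes are alike. Without WT-220 and 154Q-AXH-217 the count was again 0, with 1862 unadjusted.

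The 24 genes with the lowest p were followed in the other regions of the same mice. In the cortex, where 1330 of 18610 genes were called (7.15%), 23 of the 24 passed in the same direction, and *Cabp7* was the exception (-0.48, adjusted p = 0.27). *Plk5* fell by 2.69 on the log2 scale there, *Ier5l* by 1.30, *Hrh3* by 1.22, and *Pdp1* by 0.94. In the hippocampus, where 279 of 21454 genes were called (1.3%), 14 of the 24 passed, among them *Ier5l* (-1.44) and *Sfmbt2* (1.09), whereas *Pdp1* was at -0.06 (adjusted p = 0.85). In the cerebellum (2.21% of genes called) *Gsg1l*, *Plk5*, *Slc6a15*, and *Samd14* passed, with log2 fold changes of -0.50, -0.41, 0.26, and 0.23. In the brainstem, with 3 154Q-AXH libraries and 3 of 21754 genes called (0.0138%), none of the 24 passed and the largest was *Hrh3* (-0.38, adjusted p = 0.20).

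A test of the difference itself, the interaction of genotype with region over 16 striatal and cortical libraries, called none of 18743 genes (edgeR, 359 at an unadjusted p under 0.05, and by DESeq2 0 with 492 unadjusted). With mouse as a replicate block it was 0, with 365 unadjusted. The same mice gave both regions, and the striatal libraries carry the cortical markers described above, so the regions are not independent measurements. The label and the file name of 1 154Q-AXH and 1 154Q cortical library disagree. Without this pair 800 of 18811 genes were called in the cortex (4.25%) and 22 of the 24 passed.

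**Figure D5:**
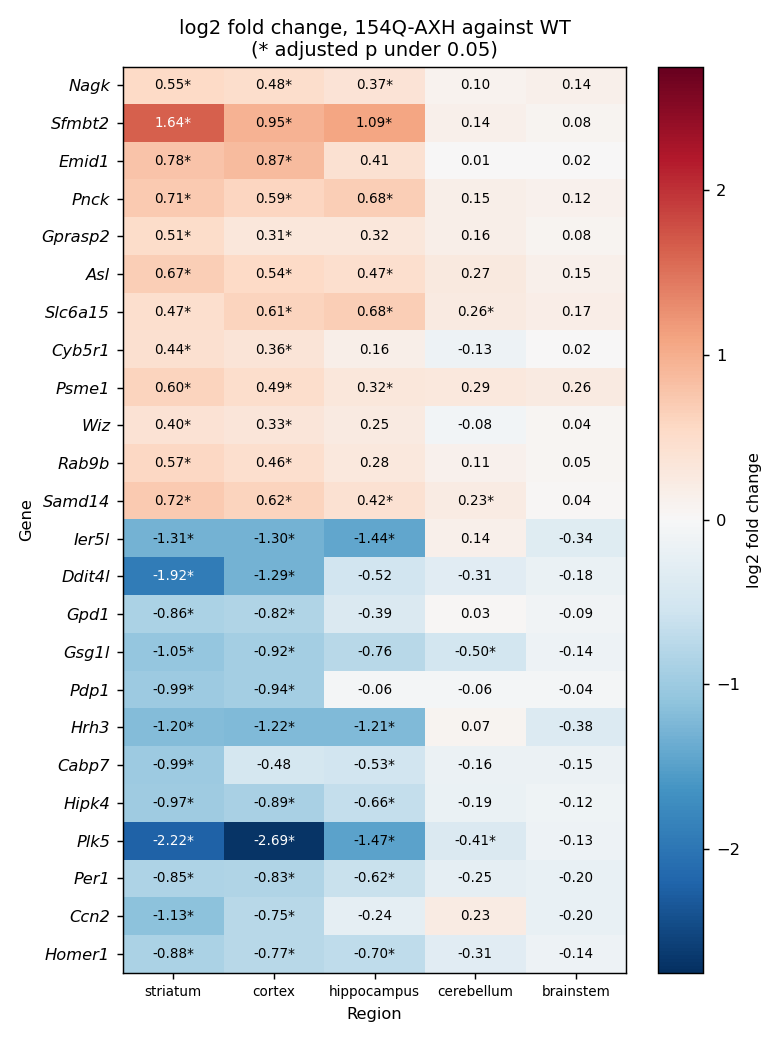
Color and numbers give the log2 fold change of 154Q-AXH against WT for the 24 genes in each region, with an asterisk where the adjusted p was under 0.05. The striatal and cortical columns are alike in sign for all 24, and most values in the cerebellum and brainstem are close to 0.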

How the data were processed

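RNA was sequenced from 5 brain regions of 12 mice. The authors trimmed paired-end reads from polyA RNA with Trimmomatic 0.36, aligned them with STAR 2.7.2d to GRCm38.p6 (versions from the submitters' notes), and deposited whole, unnormalized counts of read pairs per gene, both for each strand and ignoring strand. The counts ignoring strand were used. Groups came from the labels, and in the cortex, where a pair of files is named against the labels, the labels were followed. The 4 summary lines and 1 human transgene line (at most 53 counts) were left out, leaving 54232 genes. Names and positions are from GENCODE M21 (GRCm38), a later release than the authors' annotation.

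The 12 striatal libraries (3 genotypes) were filtered by filterByExpr, scaled by TMM, and tested in R 4.3.3 with edgeR 4.0.16 (glmQLFit with legacy off, then glmQLFTest), and a gene was called at a Benjamini-Hochberg adjusted p under 0.05. The fit was tested on simulated data. SE is the absolute log2 fold change over the square root of F. Gene counts of 28058359 to 54719126 per WT or 154Q-AXH striatal library set the counting precision, and p-values measure the spread between mice. Genes named are the 12 raised and 12 lowered with the lowest p, a mean of at least 1 CPM and separate ranges, skipping Gm and Rik names, in each of 44 gene lists the called members (up to 8) and up to 4 abundant members that were not called, 5 factors, and *Xist*. Members and lists were chosen with earlier results of these data known. The main interaction fit did not pair regions by mouse. An alternative fit paired them by mouse number, since the titles give the same mouse for both. Alternatives were DESeq2 1.42.0, DESeq2 size factors, no filter or a mean of 1 CPM, 2 genotypes, 1 strand, sex, mouse number series (as a covariate, or only WT of the higher series), cortical markers, each library left out, and, chosen after seeing the data, leaving out WT-220 and 154Q-AXH-217. The CIC peak genes came from the study's supplement, and its RFX1 and ZKSCAN1 lists were not used here.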

Additional observations from a re-analysis of the deposited data

Results flagged for a closer look

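Values that stood apart from the other 3 libraries of their group by Dixon's test are given here without explanation, and chance alone flags about 1 in 20 groups. WT-220 was highest among WT for the summed markers of spiny projection neurons (15076 CPM), D1 neurons (788 CPM), D2 neurons (2072 CPM), myelin (17922 CPM), and oligodendrocyte precursors (391 CPM), and lowest for cortical glutamatergic markers (705 CPM). Among single genes it was highest for *Adora2a* (397 CPM), *Penk* (1275 CPM), *Ppp1r1b* (2092 CPM), *Tac1* (258 CPM), *Chat* (22.8 CPM), *Hpca* (2345 CPM), *Mbp* (8186 CPM), *C1qa* (80.6 CPM), *Atxn1* (64.0 CPM), and *Sec14l1* (336 CPM), and lowest for *Slc17a7* (469.9 CPM), *Zkscan1* (24.8 CPM), and *Pcyt1b* (44.0 CPM).

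In other WT mice, *Arc* (367 CPM), *Fos* (40.6 CPM), and *Cabp7* (15.9 CPM) were highest and *Mid2* (25.7 CPM) was lowest in WT-221, *Cyb5r1* was highest (18.7 CPM) and *Ddx3y* lowest (62.0 CPM) in WT-77, and the ependymal and choroid plexus sum was highest in WT-70 (2573 CPM). Among 154Q-AXH mice, 154Q-AXH-217 was highest for *Xist* (583 CPM), *Wt1* (5.77 CPM), *Cyb5r1* (25.3 CPM), and the share of counts in the 10 most counted genes (8.12%), and lowest for *Ddx3y* (1.02 CPM), *Ier5l* (14.6 CPM), and *Pcyt1b* (59.4 CPM). *Npas4* was lowest (6.38 CPM) and the endothelial sum highest (326 CPM) in 154Q-AXH-207, and *Dnajb5* was highest in 154Q-AXH-218 (150.4 CPM).

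*Ier5* went opposite ways in 2 regions, with every 154Q-AXH library below WT in the striatum (log2 fold change -0.80) and above WT in the brainstem (0.21, adjusted p = 0.60). The difference between the regions was not tested.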

How the results depend on the processing

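The count of genes changed in 154Q-AXH against WT striatum, 249, became 611 with DESeq2, 73 with only the 2 genotypes compared, 149 with a covariate for mouse number series, 0 with only the WT mice of the higher series (edgeR, 1351 unadjusted), 1339 with the cortical marker level as a covariate, and 937 without WT-220 and 154Q-AXH-217. Leaving out 1 library gave 101 to 610. The causes of these differences were not tested, and the fits of fewer mice also held fewer libraries. All 24 genes with the lowest p kept their direction under every alternative run, which their separate ranges nearly fix where libraries are only left out. Their calls held under all but the series covariate (3 lost), the 2 genotypes (1 lost), and only the WT mice of the higher series (24 lost). The comparison with 154Q stayed at 0 under the alternatives run for it (not the cortical or number series covariates). So did the interaction under DESeq2, DESeq2 size factors, no filter, the block, and without the cortical libraries of 154Q-AXH-207 and WT-221. The leave-one-out range was 0 to 0 for each. With mouse as a replicate block the interaction count was 0, as without the pairing. The mouse number series and the genotype can be told apart only through the WT mice, 2 in each series. Genes under about 1 CPM, such as *Fgf17* and *Wnt8b*, rest on few read pairs.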

Other observations

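Scaffold proteins of the postsynaptic density recur among the lowered genes. They were picked after their values were seen, so the count is no test. *Shank3* was at 340.4, 307, 363, and 347 CPM in the WT libraries and 240.2, 270.2, 269, and 258 CPM in the 154Q-AXH libraries (log2 fold change -0.39, SE 0.07, adjusted p = 0.016). *Dlg4*, which codes for PSD-95, was at 670.3, 656, 658, and 692 CPM in the WT libraries and 519, 559, 538, and 539 CPM in the 154Q-AXH libraries (log2 fold change -0.31, SE 0.06, adjusted p = 0.017), and *Dlgap3*, which binds both, had a log2 fold change of -0.42 (adjusted p = 0.047). *Ddn*, dendrin of the dendritic spine, was at 1127, 989, 1301, and 1129 CPM in the WT libraries and 572, 714, 639, and 718 CPM in the 154Q-AXH libraries (log2 fold change -0.78, SE 0.10, adjusted p = 0.0026). *Itpka*, an actin-bundling inositol kinase of spines, was at 226, 208, 220.1, and 251 CPM in the WT libraries and 112, 124, 121, and 147 CPM in the 154Q-AXH libraries (log2 fold change -0.85, SE 0.10, adjusted p = 0.00090), and *Lzts3* and *Synpo* had log2 fold changes of -0.72 and -0.50 (adjusted p = 0.035 and 0.040). The WT and 154Q-AXH ranges were separate for all 7, as for 248 of the 249 called genes. *Ddn* and *Itpka* kept the call with any 1 library left out. *Shank3* lost its call without WT-221, 154Q-AXH-207, or 154Q-AXH-209, *Dlg4* lost its call without WT-221, 154Q-AXH-207, or 154Q-AXH-209, *Dlgap3* lost its call without any 1 of 9 libraries and kept it without WT-77, WT-220, or 154Q-AXH-217, *Lzts3* lost its call without any 1 of 9 libraries and kept it without WT-77, WT-220, or 154Q-AXH-217, and *Synpo* lost its call without any 1 of 11 libraries and kept it without WT-220.

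Other genes, also picked after their values were seen, are known mainly from other tissues. *Ryr1*, the calcium release channel of skeletal muscle, was at 44.9, 37.5, 50.1, and 34.4 CPM in the WT libraries and 8.198, 13.5, 17.4, and 9.40 CPM in the 154Q-AXH libraries (log2 fold change -1.78, SE 0.20, adjusted p = 0.0010). *Tnnc1* and *Myl4*, troponin C and a myosin light chain, had log2 fold changes of -2.14 and -1.97 (adjusted p = 0.013 and 0.013). Among raised genes, the developmental transcription factor *Wt1* was at 0.131, 0.315, 0.0926, and 0.298 CPM in the WT libraries and 1.41, 1.74, 5.77, and 1.44 CPM in the 154Q-AXH libraries (log2 fold change 3.75, SE 0.64, adjusted p = 0.013). *Onecut1* and *Skor1*, also transcription factors, were at 0 to 0.0741 CPM in WT and 0.219 to 0.555 CPM in 154Q-AXH mice and 0.105 to 0.189 CPM in WT and 0.288 to 0.626 CPM in 154Q-AXH mice. Of the 51 raised genes, 9 lie on the X chromosome (17.6%), against 2.02% of the lowered and 3.36% of the tested genes. They include *Pnck*, *Gprasp2*, *Rab9b*, *Gspt2*, *Mid2*, *Pcyt1b*, *Gprasp1*, and *Pcdh11x*. With sex as a covariate 41 genes were raised over all chromosomes. The share was not tested.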
